A study of Mus musculus with 18 samples.

Results

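The 10 transcription factors described here guide an early blood progenitor into the T-cell lineage and keep it there. They are Bcl11b, Tcf7, Lef1, Gata3, Ets1, Ikzf1, Ikzf3, Id2, Id3 and Nfatc1, 10 of the 20672 genes on the array. They were chosen by name, as every probe set annotated with one of these symbols, which gave 27 probe sets among 38089 with a gene symbol. Each gene is represented by its brightest probe set over 18 arrays, and all 10 genes were measured. No gene was left out for low signal.

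In thymocyte development, Notch signals switch on Tcf7 and Gata3, which in turn open the way for Bcl11b, the zinc finger factor whose onset marks commitment to the T lineage. Lef1 and Tcf7 are close relatives that bind the same DNA sequence and cooperate with beta-catenin. Ets1 and Ikzf1 (Ikaros) act across lymphoid cells, Ikzf3 (Aiolos) rises in more mature thymocytes, and Id2 and Id3 hold back E proteins, the partners that drive T- and B-cell genes. Nfatc1 is turned on by calcium signals through calcineurin.

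Signal was measured in 3 groups of mice, with 1 array per mouse. The Idh2R140Q/NHD13 group (IDH2/NHD13) had 9 arrays of leukemic spleen, from mice with a mutant isocitrate dehydrogenase 2 and the NUP98-HOXD13 fusion, whose T-cell acute lymphoblastic leukemia is labelled DN1/DN2 after the earliest thymocyte stages. The SCL/LMO1 group had 6 arrays of leukemic thymus, labelled as cortical, CD4+CD8+ T-ALL outside the DN1/DN2 kind, and the wild-type (WT) group had 3 arrays of normal thymus. The promoters that drive the transgenes and the ages of the mice are not given in the sources used here. Tissue and genotype go together in the spleen group, so spleen against thymus and IDH2/NHD13 against the other genotypes cannot be told apart. These are bulk RNA samples, in which fewer cells of a type and less RNA per cell cannot be told apart.

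Mice 546 and 550 of the IDH2/NHD13 group gave near-identical arrays, with a root mean square difference of 0.212 in log2 signal, against 0.445 or more in the other 152 pairs of arrays. They were counted as 1 sample, which leaves 8, 6 and 3 samples. The next closest pair, at 0.445, were the arrays of SCL/LMO1 mice 7114/1 and 7114/3, whose labels share the number 7114. That pair was counted as separate samples. Array medians lay between 5.891 and 6.01, and the median gene had a log2 signal of 6.71. The number of arrays limits the precision. Marker lists followed the labels in part. The mean log2 signal of 14 erythroid genes was 8.86 to 12.91 in IDH2/NHD13 spleens, against 4.75 to 5.22 in SCL/LMO1 thymi and 4.99 to 5.39 in WT thymi. That of 9 neutrophil genes was 6.64 to 12.6, against 5.6 to 9.71 and 5.67 to 6.57. Spleen stroma and endothelium genes averaged 6.46 to 7.29 in IDH2/NHD13 spleens, against 5.85 to 6.56 in SCL/LMO1 and 6.01 to 6.62 in WT thymi. Thymic epithelium genes averaged 5.56 to 6.53 in IDH2/NHD13 spleens and 9.22 to 9.97 in WT thymi. In SCL/LMO1 thymi they stood at 9.06 in mouse 3767 and at 5.42 to 6.37 in the other mice. Megakaryocyte and platelet genes averaged 8.17 to 9.55 in IDH2/NHD13 spleens, 6.34 to 6.73 in SCL/LMO1 and 6.23 to 7.2 in WT thymi, and macrophage genes 9.59 to 10.74, 8.35 to 9.15 and 9.39 to 10.43. B-cell genes averaged 5.33 to 6.07 in IDH2/NHD13 spleens, 5.36 to 7.2 in SCL/LMO1 and 6.78 to 7.96 in WT thymi. For NK genes these ranges were 6.05 to 8.01, 6.33 to 7.22 and 6.96 to 7.31, and for mature T-cell genes 6.29 to 7.14, 7.21 to 8.41 and 7.37 to 7.72.

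Of the 10 genes, 7 have a promoter in the RefSeq table of assembly GRCm38.p6. The window taken was the 250 bases before the most upstream start that the table gives. Of the 7 windows, 4 are printed 5′ to 3′ in the direction of the gene. Bcl11b (chr12:108003415-108003664, minus strand) and Gata3 (chr2:9878601-9878850, minus strand) are shown because they hold a match to a motif of another factor of the group. Lef1 (chr3:131110047-131110296, plus strand) is shown as the gene with the largest difference between the leukemias, and Ikzf1 (chr11:11685675-11685924, plus strand) as a gene that stayed near its WT level in the spleens. Capitals mark the matches.
Bcl11b: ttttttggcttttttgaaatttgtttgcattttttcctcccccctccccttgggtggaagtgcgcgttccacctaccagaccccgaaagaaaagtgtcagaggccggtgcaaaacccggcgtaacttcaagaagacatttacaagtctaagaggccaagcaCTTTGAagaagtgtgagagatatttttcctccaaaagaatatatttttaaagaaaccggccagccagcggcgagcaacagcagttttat
Lef1: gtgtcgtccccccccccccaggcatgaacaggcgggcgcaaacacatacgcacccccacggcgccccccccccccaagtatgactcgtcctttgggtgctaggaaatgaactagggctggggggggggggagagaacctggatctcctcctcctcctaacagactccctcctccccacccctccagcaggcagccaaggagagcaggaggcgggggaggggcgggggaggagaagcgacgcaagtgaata
Gata3: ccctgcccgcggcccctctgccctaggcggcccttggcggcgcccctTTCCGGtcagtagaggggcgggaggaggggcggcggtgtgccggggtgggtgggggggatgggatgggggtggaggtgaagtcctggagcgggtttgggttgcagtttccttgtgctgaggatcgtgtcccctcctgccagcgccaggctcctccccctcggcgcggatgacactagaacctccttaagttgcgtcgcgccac
Ikzf1: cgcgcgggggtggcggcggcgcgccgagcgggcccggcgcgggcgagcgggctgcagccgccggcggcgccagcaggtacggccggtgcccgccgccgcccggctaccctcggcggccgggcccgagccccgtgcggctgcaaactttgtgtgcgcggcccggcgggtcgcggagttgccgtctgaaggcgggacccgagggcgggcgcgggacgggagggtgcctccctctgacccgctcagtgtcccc

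The motifs searched on both strands were the TCF/LEF core CTTTGA, the ETS core CCGGAA, the GATA core AGATAA and the Ikaros core TGGGAA. None of these matches overlapped another. The TCF/LEF core began at position -89 from the start of Bcl11b, and the ETS core lay on the opposite strand at position -203 of Gata3. The other 5 windows held none of the 4 cores. That of Tcf7 holds an ATG with no stop codon in its frame up to the end of the window, so it may be coding sequence rather than a promoter. Chromosome 18 was also left out of the 27018 promoters of the same length used for comparison. Of these, 14.1% held the TCF/LEF core, 12.2% the ETS core, 10.2% the GATA core and 21.5% the Ikaros core. The E-box CANNTG, the kind of site that E proteins bind, was found in Lef1, Id2 and the doubtful window of Tcf7, and in 66.1% of all promoters. A match of letters is a description of the window and not a binding site.

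**Figure D1:**
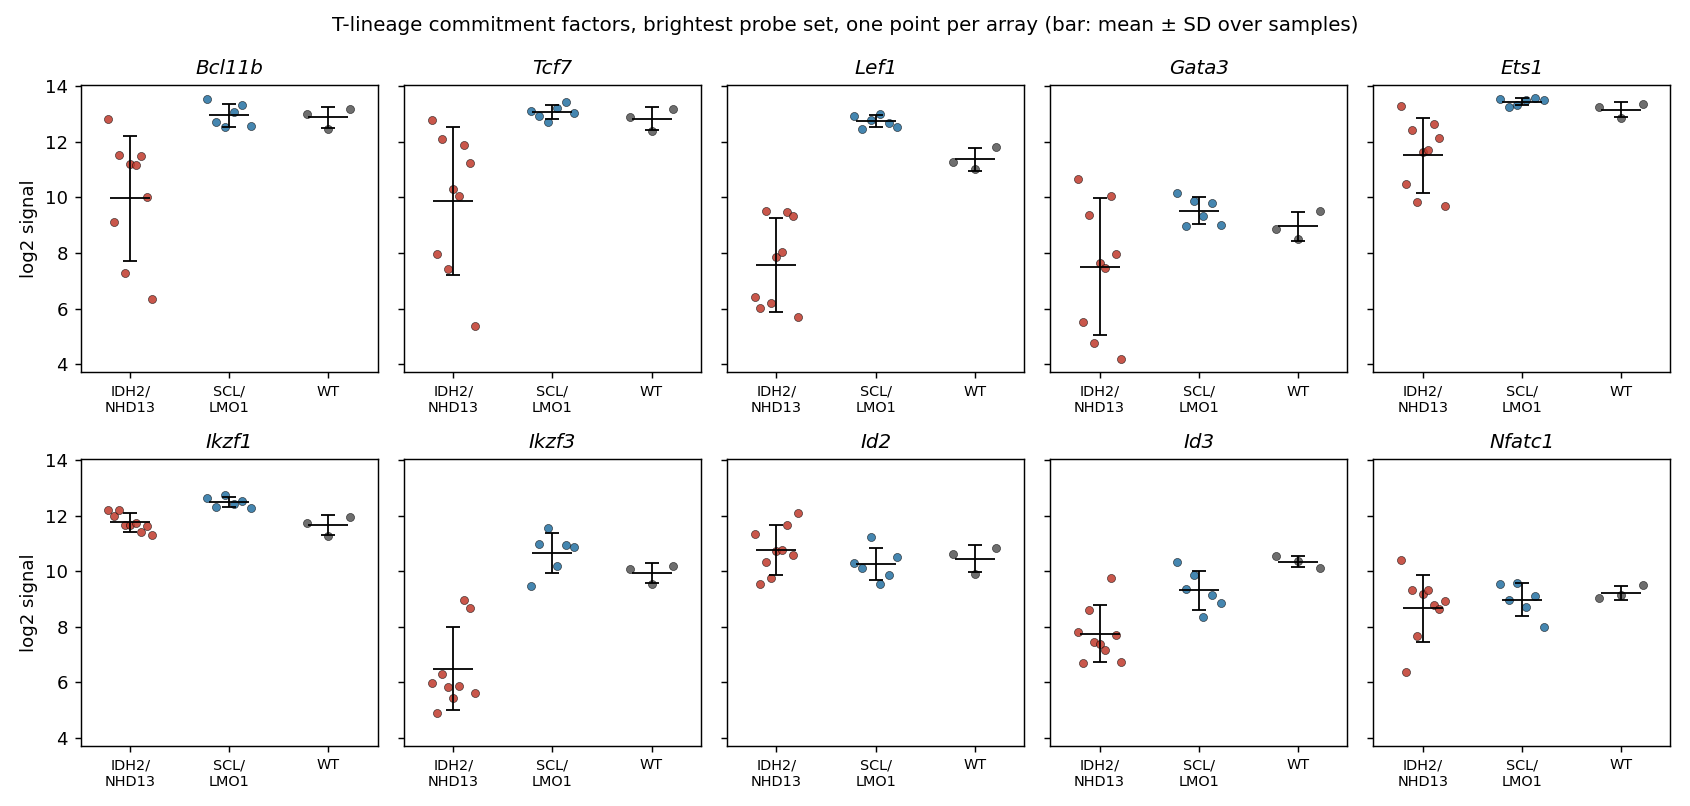
Log2 signal of the brightest probe set of each of the 10 genes (vertical axis) in IDH2/NHD13 spleens, SCL/LMO1 thymi and WT thymi (horizontal axis), with 1 point per array and bars for mean ± SD over 8, 6 and 3 samples. Bcl11b spreads from 6.33 to 12.81 among the spleens, whereas the SCL/LMO1 thymi sit between 12.54 and 13.55 and the WT thymi between 12.46 and 13.18.

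The comparison of the leukemias asked how far the factors of T-lineage commitment separate the DN1/DN2 kind from the cortical kind. In IDH2/NHD13 spleens, 7 of the 10 genes were lower than in SCL/LMO1 thymi and 0 were higher. Lef1, Ikzf3, Tcf7, Bcl11b, Ets1, Id3 and Ikzf1 fell, by 35.8-fold for Lef1 at one end and 1.66-fold for Ikzf1 at the other. Gata3, Nfatc1 and Id2 did not pass the test. Calls were made with limma over all genes at an adjusted p under 0.05 (Benjamini-Hochberg), by which 23.7% of all genes were called, 12% lower and 11.7% higher. The median log2 fold change was -1.97 over the 10 genes and 0.03 over all genes. In 3 of them, Lef1, Ikzf1 and Ikzf3, every spleen array lay below every SCL/LMO1 array, as did 3.95% of all genes, while 4.74% lay wholly above.

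Against WT thymus, 3 of the 10 genes were lower in IDH2/NHD13 spleens, namely Lef1, Ikzf3 and Id3, and 0 were higher. By the same limma test 17.4% of all genes were called, 8.31% lower and 9.08% higher. The median log2 fold change was -2.11 over the 10 genes and 0.1 over all genes. The groups did not overlap for the same 3 genes, as was so in 5.15% of all genes in this direction and in 6.99% in the other. Both comparisons use the same spleen arrays. In SCL/LMO1 thymi against WT thymi 1 of the 10 genes was called, Ikzf1, which was higher, against 11.6% of all genes called, 5.04% higher and 6.52% lower. The median log2 fold change there was 0.27 over the 10 genes and 0.08 over all genes. All 6 SCL/LMO1 arrays lay above all WT arrays for Lef1 and Ikzf1, which held in 11.3% of all genes, and 9.56% lay wholly below.

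**Figure D2:**
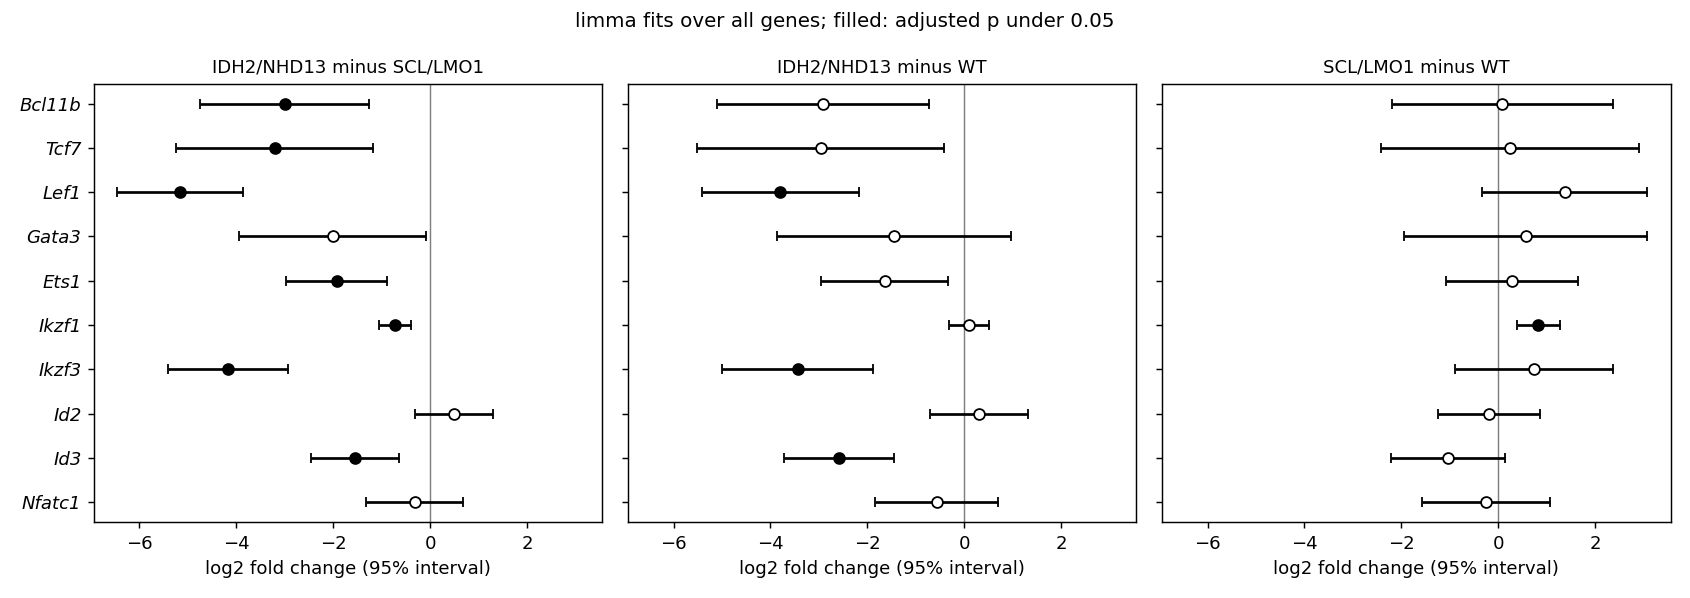
Log2 fold change of each of the 10 genes (horizontal axis) in the 3 comparisons, from limma over all genes, with 95% intervals and filled points where the adjusted p was under 0.05. Between the leukemias 7 points are filled and all 7 lie left of 0, with Lef1 farthest at -5.16. Intervals of SCL/LMO1 minus WT are wide for Bcl11b, Tcf7 and Gata3, since the spread used includes the variable spleens. With only these thymus groups in the fit they were -0.51 to 0.68, -0.2 to 0.68 and -0.15 to 1.28.

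Bcl11b had a log2 signal of 6.33 at the lowest, 10.6 at the median and 12.81 at the highest in IDH2/NHD13 spleens. The same values were 12.54, 12.9 and 13.55 in SCL/LMO1 thymi, and the 3 WT thymi had 12.99, 12.46 and 13.18. Of the 9 spleen arrays, 8 lay below the lowest WT array, and mouse 524 at 12.81 lay within the WT range. Bcl11b averaged 9.97 ± 2.25 in IDH2/NHD13 spleens (SD, n = 8), against 12.96 ± 0.42 in SCL/LMO1 thymi (SD, n = 6) and 12.88 ± 0.38 in WT thymi (SD, n = 3). Against SCL/LMO1 it was lower by a log2 fold change of -2.99 ± 0.82 (SE, limma adjusted p = 0.0147). Against WT the log2 fold change was -2.91 with a 95% interval of -5.1 to -0.72, which missed the threshold (limma adjusted p = 0.062). Without mouse 524 Bcl11b passed, at -3.32 (limma adjusted p = 0.0223), as did 1 of its 3 other probe sets with all samples, at -2.79 (limma adjusted p = 0.0356). With only IDH2/NHD13 and WT in the fit it did not pass (limma adjusted p = 0.155). Bcl11b stayed uncalled against WT in 26 of 31 alternatives. In SCL/LMO1 against WT thymi the log2 fold change of Bcl11b was 0.08, and with only these 2 groups in the fit its 95% interval was -0.51 to 0.68 (limma adjusted p = 0.844).

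Tcf7, which encodes TCF-1, an early target of Notch signals, had a log2 signal of 5.39 at the lowest, 10.71 at the median and 12.77 at the highest in IDH2/NHD13 spleens. SCL/LMO1 thymi had 12.72, 13.08 and 13.42, and WT thymi had 12.91, 12.4 and 13.2. Its order over the mice was close to that of Bcl11b, with mouse 524 within the WT range and mice 570, 531 and 525 the lowest in both genes. Tcf7 averaged 9.87 ± 2.65 in IDH2/NHD13 spleens (SD, n = 8), 13.08 ± 0.24 in SCL/LMO1 thymi (SD, n = 6) and 12.84 ± 0.4 in WT thymi (SD, n = 3). It was 9.23-fold lower in IDH2/NHD13 spleens than in SCL/LMO1 thymi, at a log2 fold change of -3.21 ± 0.96 (SE, limma adjusted p = 0.0231). Against WT it was -2.96 with a 95% interval of -5.51 to -0.42, short of the threshold (limma adjusted p = 0.0955). Without mouse 524 it was -3.38 and passed (limma adjusted p = 0.0468). A second, dimmer probe set of Tcf7 also passed against WT, at -1.77 (limma adjusted p = 0.0185). With only IDH2/NHD13 and WT in the fit Tcf7 did not pass (limma adjusted p = 0.207). It stayed uncalled against WT in 26 of 29 alternatives.

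Lef1, the relative of Tcf7, showed the largest difference between the leukemias among the 10 genes. Its log2 signal was 5.7 at the lowest, 7.18 at the median and 9.52 at the highest in IDH2/NHD13 spleens. It was 12.47, 12.73 and 13.01 in SCL/LMO1 thymi, and 11.28, 11.02 and 11.82 in WT thymi. The 3 groups did not overlap, and mouse 524, near WT for Tcf7, had only 6.42 for Lef1. Lef1 averaged 7.57 ± 1.68 in IDH2/NHD13 spleens (SD, n = 8), 12.74 ± 0.21 in SCL/LMO1 thymi (SD, n = 6) and 11.37 ± 0.41 in WT thymi (SD, n = 3). It was lower in spleens, with log2 fold changes of -5.16 ± 0.61 against SCL/LMO1 (SE, limma adjusted p = 2.26e-05) and of -3.8 ± 0.77 against WT (SE, limma adjusted p = 0.00374), a 13.9-fold difference. The second probe set of Lef1, dimmer over all arrays, gave -4.79 and -2.99 in these comparisons.

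Whether Lef1 was higher in SCL/LMO1 than in WT thymi depended on the spread used. With the spread shared by all 3 groups, which includes the variable spleens, the log2 fold change of 1.37 had a 95% interval of -0.33 to 3.07 (limma adjusted p = 0.289). With only these 2 groups in the fit, the interval was 0.94 to 1.79 (limma adjusted p = 0.00319). The second probe set of Lef1 passed with all 3 groups, at 1.8 (limma adjusted p = 0.00405). The exact two-sided permutation test over the samples gave p = 0.0119 for the brightest probe set, the smallest that its 84 splits allow.

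Gata3, needed from the first T-lineage steps on and later for CD4+ T cells, had a log2 signal of 4.19 at the lowest, 7.77 at the median and 10.66 at the highest in IDH2/NHD13 spleens. For SCL/LMO1 thymi these values were 8.99, 9.56 and 10.17, and the WT thymi had 8.88, 8.5 and 9.51. The spleens spanned both sides of WT. Of 9 arrays, 6 lay below the lowest WT array and 2, those of mice 524 (10.66) and 555 (10.06), above the highest. The log2 fold change of Gata3 against SCL/LMO1 was -2.01 with a 95% interval of -3.94 to -0.09 (limma adjusted p = 0.123). Without mouse 524 it was -2.46 and passed (limma adjusted p = 0.0405). With only the 2 leukemias in the fit it was -2.01 and did not pass (limma adjusted p = 0.155). Against WT it was -1.45 with an interval of -3.86 to 0.96 (limma adjusted p = 0.378).

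Ets1, a lymphoid ETS factor, had a log2 signal of 9.69 at the lowest, 11.9 at the median and 13.29 at the highest in IDH2/NHD13 spleens. The SCL/LMO1 thymi had 13.26, 13.5 and 13.58, and the WT thymi 13.25, 12.87 and 13.37. As for Bcl11b and Tcf7, 8 of 9 spleen arrays lay below the lowest WT array and mouse 524 lay within the WT range. Ets1 was 3.82-fold lower in IDH2/NHD13 spleens than in SCL/LMO1 thymi, a log2 fold change of -1.93 ± 0.49 (SE, limma adjusted p = 0.00925). Against WT it was -1.64 with a 95% interval of -2.95 to -0.34 (limma adjusted p = 0.0751), and -1.89 without mouse 524 (limma adjusted p = 0.0254). With only IDH2/NHD13 and WT in the fit Ets1 did not pass (limma adjusted p = 0.177). It stayed uncalled against WT in 28 of 31 alternatives. All 4 probe sets of Ets1 were lower than in SCL/LMO1, at -1.07 to -1.93.

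The spleens thus formed an uneven group for Bcl11b, Tcf7, Gata3 and Ets1. Mice 525, 531 and 570 were the lowest in each of these genes, with Bcl11b at 9.12, 7.27 and 6.33 and Gata3 at 5.51, 4.77 and 4.19. In the same mice, the list of 20 T-lineage genes averaged 6.3, 6.2 and 6.29, against 7.81 to 8.74 in the other spleens. Their erythroid list means were 11.48, 12.91 and 12.31, against 8.86 to 12.01 in the other spleens. The part of other cell types in these levels was not tested. Mouse 524 was the highest spleen for these 4 genes, with Bcl11b, Tcf7 and Ets1 at WT levels, and for Satb1, a chromatin organiser of thymocytes, at 11.96 against 5.96 to 9.85 in the other spleens. It was also the highest spleen for Nfatc1, at 10.42 (6.36 to 9.32 in the others), and Notch1, at 11.5 (7.49 to 10.74). For Egr1 it was the lowest, at 7 (8.17 to 10.58). It lay among the other spleens for Lef1 at 6.42 (5.7 to 9.52), Ikzf3 at 5.98 (4.9 to 8.97) and Cd2 at 4.64 (4.55 to 6.52).

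**Figure D3:**
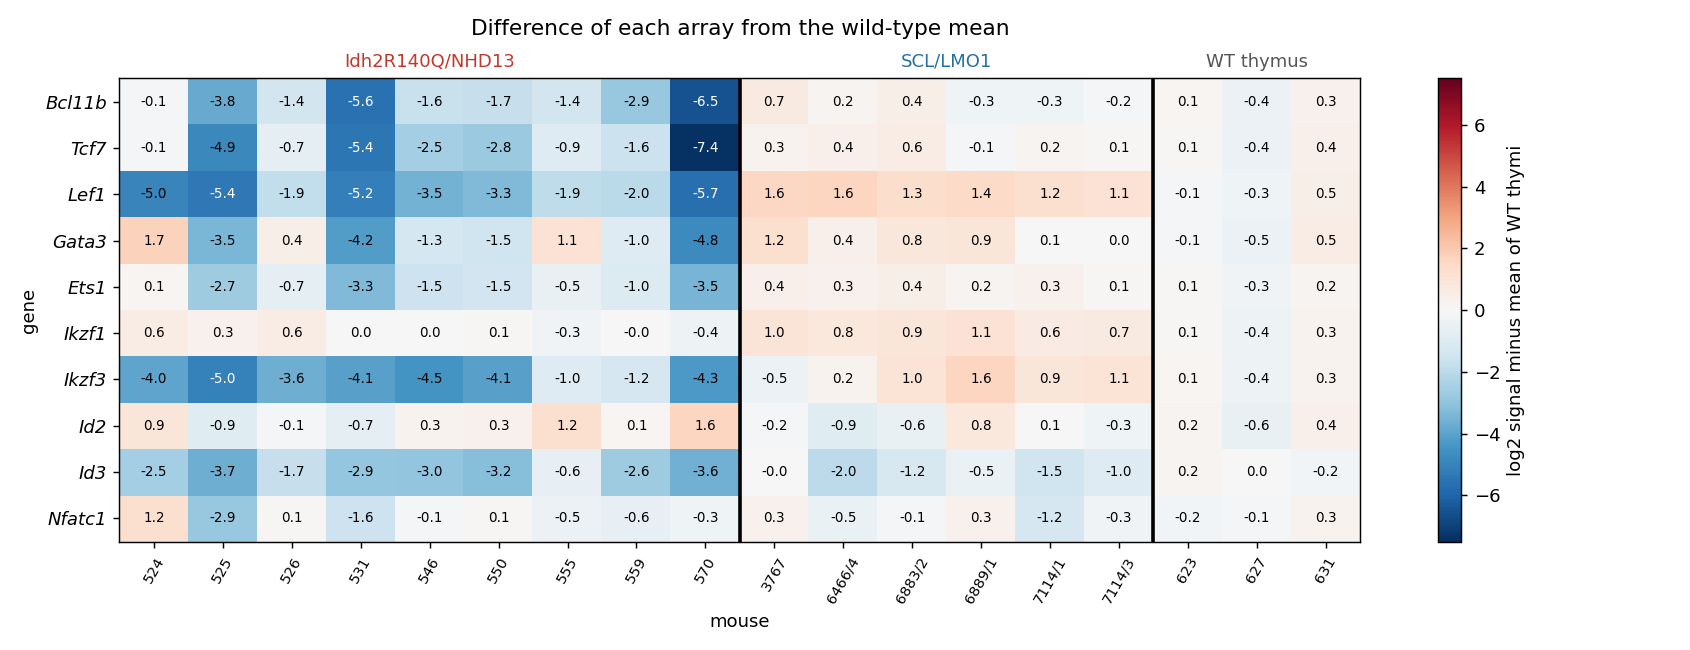
Difference of each array from the mean of the 3 WT thymi in log2 signal (colour and printed value), with the 10 genes down the side and the mice along the bottom, IDH2/NHD13 first, then SCL/LMO1 and WT. The arrays of mice 525, 531 and 570 are the darkest for Bcl11b, Tcf7, Gata3 and Ets1, and mouse 524 is near 0 for Bcl11b and Tcf7 but far below for Lef1 and Ikzf3.

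Ikzf1 encodes Ikaros, a zinc finger factor present from progenitors to mature lymphocytes. Its log2 signal was 11.3 at the lowest, 11.68 at the median and 12.22 at the highest in IDH2/NHD13 spleens. It was 12.27, 12.48 and 12.74 in SCL/LMO1 thymi, and 11.75, 11.27 and 11.95 in WT thymi. No spleen fell below the WT range, and 6 of 9 spleen arrays lay within it. Ikzf1 was lower in IDH2/NHD13 spleens than in SCL/LMO1 thymi, with a log2 fold change of -0.73 ± 0.16 (SE, limma adjusted p = 0.00322). Against WT the log2 fold change of 0.1 had a 95% interval of -0.32 to 0.52 (limma adjusted p = 0.731), the narrowest of the 10 genes. In SCL/LMO1 thymi Ikzf1 was higher than in WT by 0.83 ± 0.21 (SE, limma adjusted p = 0.017). This call was lost without WT mouse 627, at 0.64 (limma adjusted p = 0.146). Mouse 627 was the lowest WT thymus for Ikzf1, Bcl11b, Tcf7, Lef1, Gata3, Ets1, Ikzf3 and Id2, but not for Id3 or Nfatc1. Its mean over the 10 adipocyte genes described below with Id3 was 12.87, against 11.24 and 9.22 in WT mice 623 and 631. The part of fat tissue in this call was not tested. The other probe set of Ikzf1, with a mean log2 signal of 5.7, below the median gene, was not called in any of the 3 comparisons.

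Ikzf3, its relative Aiolos, behaved differently. Its log2 signal was 4.9 at the lowest, 5.9 at the median and 8.97 at the highest in IDH2/NHD13 spleens. The lowest, median and highest SCL/LMO1 thymi had 9.48, 10.91 and 11.54, and the WT thymi 10.07, 9.54 and 10.19. All spleens lay below both thymus groups, with mice 555 (8.97) and 559 (8.68) well above the other spleens (4.9 to 6.29). Ikzf3 averaged 6.49 ± 1.5 in IDH2/NHD13 spleens (SD, n = 8), 10.67 ± 0.72 in SCL/LMO1 thymi (SD, n = 6) and 9.94 ± 0.35 in WT thymi (SD, n = 3). It was 18.1-fold lower in spleens than in SCL/LMO1 thymi, at -4.18 ± 0.59 (SE, limma adjusted p = 0.000106). Against WT thymi it was 10.9-fold lower, at -3.44 ± 0.74 (SE, limma adjusted p = 0.00529). Most spleens were below the median gene of the arrays for Ikzf3, where low signals cannot be separated from background, so these folds may be understated.

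Id3, an inhibitor of E proteins that is induced by pre-TCR and TCR signals, had a log2 signal of 6.69 at the lowest, 7.58 at the median and 9.76 at the highest in IDH2/NHD13 spleens. In SCL/LMO1 thymi it was 8.37, 9.25 and 10.32, and in WT thymi 10.55, 10.37 and 10.13. All 9 spleen arrays and 5 of 6 SCL/LMO1 arrays lay below the lowest WT array. Id3 averaged 7.76 ± 1.02 in IDH2/NHD13 spleens (SD, n = 8), 9.31 ± 0.7 in SCL/LMO1 thymi (SD, n = 6) and 10.35 ± 0.21 in WT thymi (SD, n = 3). It was lower in spleens, with log2 fold changes of -1.55 ± 0.43 against SCL/LMO1 (SE, limma adjusted p = 0.0145) and of -2.59 ± 0.53 against WT (SE, limma adjusted p = 0.00429). In SCL/LMO1 against WT the log2 fold change was -1.03 with a 95% interval of -2.22 to 0.15 (limma adjusted p = 0.248).

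Adipoq, the adipocyte hormone adiponectin, was the gene most like Id3 among 9847 searched (Pearson r = 0.924 over 17 samples). Adipoq had a log2 signal of 3.59 to 11.87 in IDH2/NHD13 spleens, 7.38 to 10.52 in SCL/LMO1 thymi and 11.96 to 14.06 in WT thymi. Mouse 555 was the highest spleen for both, with 11.87 for Adipoq and 9.76 for Id3, and mouse 3767 was the highest SCL/LMO1 thymus for both, with 10.52 and 10.32. The mean of 10 adipocyte genes, listed after the data were seen, was 9.19 in mouse 555 and 5.86 to 6.18 in the other spleens, against 6.79 to 8.12 in SCL/LMO1 and 9.22 to 12.87 in WT thymi. Over those other spleens, in which that mean hardly varied, Id3 ran from 6.69 to 8.62. Of the 10 adipocyte genes, 9 were lower in IDH2/NHD13 spleens than in WT thymi and 0 higher, against 8.31% of all genes lower. Between the leukemias 3 of these adipocyte genes were lower, Adipoq (-3.47), Cfd (-4.24) and Fabp4 (-1.33), and 0 higher, with Pparg at 1.31 (limma adjusted p = 0.056). There, 12% of all genes were lower. Mice 555 and 627 had the highest mean of their groups, while among SCL/LMO1 mice 3767 stood above 6889/1 (8.12 and 7.54). Without mice 555, 627 and 6889/1, Id3 was again lower in spleens, at -1.73 against SCL/LMO1 (limma adjusted p = 0.00411) and at -2.87 against WT (limma adjusted p = 0.00227). The spleens kept in that fit still lay below all kept thymi in the adipocyte mean, so that fit cannot tell fat from group. The part of fat tissue in the levels of Id3 was not tested.

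Id2, the inhibitor of E proteins that favours innate lymphoid and NK fates over T-cell fate, had a log2 signal of 9.54 at the lowest, 10.67 at the median and 12.09 at the highest in IDH2/NHD13 spleens. In SCL/LMO1 thymi it was 9.54, 10.2 and 11.24, and in WT thymi 10.63, 9.9 and 10.82. The groups overlapped, though mice 524 (11.34), 555 (11.65) and 570 (12.09) lay above all thymi. The log2 fold change of Id2 was 0.49 against SCL/LMO1, with a 95% interval of -0.32 to 1.3 (limma adjusted p = 0.387), and 0.3 against WT, with an interval of -0.71 to 1.32 (limma adjusted p = 0.67). The highest spleen, mouse 570 at 12.09, was the lowest for Bcl11b and Tcf7, and its mean over 7 dendritic cell genes was also the highest, at 8.91 against 5.99 to 7.56 in the other spleens, 6.26 to 7.2 in SCL/LMO1 and 7.38 to 7.61 in WT thymi. Mice 555 and 524, the next highest spleens for Id2, had dendritic means of 6.43 and 7.25. Ccr9, the brightest gene of the dendritic list in WT thymi, averaged 13.08 there, 11.2 in SCL/LMO1 thymi and 8.62 in IDH2/NHD13 spleens. It lifts the list mean of the thymi relative to the spleens. The part of dendritic cells in the level of Id2 was not tested.

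Nfatc1 had a log2 signal of 6.36 at the lowest, 8.85 at the median and 10.42 at the highest in IDH2/NHD13 spleens. SCL/LMO1 thymi stood at 7.98, 9.03 and 9.58, and WT thymi at 9.02, 9.16 and 9.51. Mice 525 (6.36) and 531 (7.66) lay below all thymi and mouse 524 above them, and the other spleens lay within the range of the thymi. The log2 fold change was -0.31 against SCL/LMO1, with a 95% interval of -1.32 to 0.69 (limma adjusted p = 0.681), and -0.57 against WT, with an interval of -1.83 to 0.7 (limma adjusted p = 0.513). These intervals leave room for changes of more than 1 log2 unit in Nfatc1.

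Other probe sets of the same genes gave mostly the same picture. Of the 17 other probe sets, 13 had the direction of the brightest one between the leukemias, 16 against WT and 12 in SCL/LMO1 against WT. In a fit over all annotated probe sets, 17 of the 27 were lower in IDH2/NHD13 spleens than in SCL/LMO1 thymi and 0 were higher. Against WT, 8 were lower and 0 higher, and in SCL/LMO1 against WT 0 were lower and 2 higher. The shares called over all annotated probe sets are not given here. Over all genes, the shares called in these comparisons were 23.7%, 17.4% and 11.6%, in the same order. Probe sets of the same gene repeat that gene and are not separate results. All 4 probe sets of Bcl11b were lower between the leukemias, at -2.73 to -3.33, and all 3 of Ikzf3, at -1.21 to -4.18, with the brightest the most so. Those of Nfatc1 ranged over -0.8 to 0.06 and were not called.

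**Figure D4:**
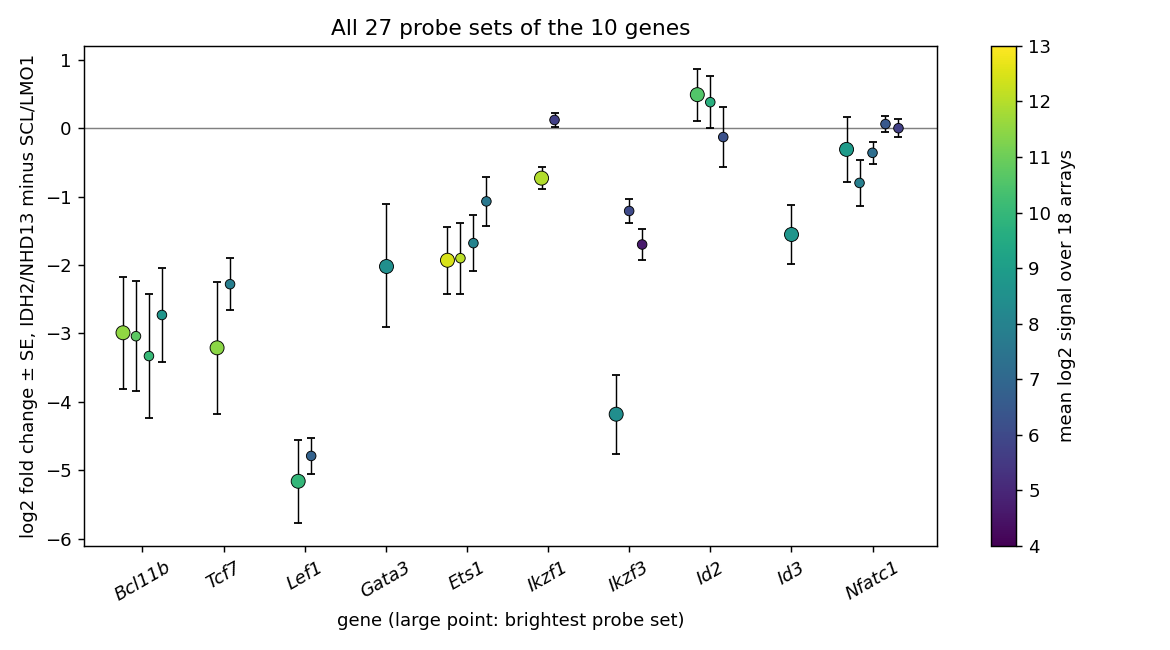
Log2 fold change ± SE of IDH2/NHD13 minus SCL/LMO1 (vertical axis) for all 27 probe sets of the 10 genes (horizontal axis), with the brightest probe set of a gene as a large point and colour for the mean log2 signal over 18 arrays. Probe sets of Bcl11b, Tcf7, Lef1, Ets1 and Ikzf3 all lie below 0, and the dim probe set of Ikzf1 lies at 0.12.

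The 10 genes did not vary as 1 block over the mice. Over the 17 samples, Tcf7 and Ets1 had a Pearson r of 0.99, Bcl11b and Tcf7 0.97, and Lef1 and Ikzf3 0.93, while Id2 had -0.28 to 0.06 with all but Nfatc1. These correlations describe samples that share their group and tissue, and they carry no test. Within the 8 spleen samples alone, Gata3 and Ets1 had 0.99, Tcf7 and Ets1 0.98, and Bcl11b and Tcf7 0.95. Lef1 had 0.76 with Ikzf3 and 0.56 with Bcl11b there, and Ikzf3 had 0.31 with Bcl11b.

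The single gene most like each member was found by Pearson r over the 17 samples among 9847 genes above the median signal. For Bcl11b it was Themis (0.981), a regulator of thymocyte selection, for Tcf7 it was Cd247 (0.987), the zeta chain of the T-cell receptor complex, and for Ets1 it was Skap1 (0.987), an adaptor of T-cell receptor signals. For Lef1 it was Sh2d1a (0.982), the SLAM adaptor SAP, for Gata3 it was Tox (0.966), and for Ikzf3 it was Camk4 (0.965). For Ikzf1 it was Zfp566 (0.957), for Nfatc1 Pdlim2 (0.93) and for Id2 Parp8 (0.821). Within the 8 spleens, these 9 pairs and that of Id3 had r of 0.874 to 0.989.

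T-lineage genes that are known to depend on these factors were lower in the spleens. Of 20 such genes, 18 were lower in IDH2/NHD13 spleens than in SCL/LMO1 thymi and 0 higher, with a median log2 fold change of -3.24. Cd8b1, the CD8 beta chain, averaged 4.66 in IDH2/NHD13 spleens, 10.84 in SCL/LMO1 thymi and 12.87 in WT thymi. Rag2, which cuts receptor genes for their rearrangement, averaged 4.33, 9.67 and 10.55 in the same order, and Cd3d, a CD3 subunit, 7.29, 13.39 and 13.01. Against WT 11 of the 20 were lower and 0 higher. In SCL/LMO1 against WT the call was 1 higher, Cd2 (1.46, limma adjusted p = 0.0134), and 1 lower, Cd8b1 (-2.03, limma adjusted p = 0.00619). Over all genes, 12% were lower between the leukemias and 8.31% in spleens against WT, and 11.6% were called in SCL/LMO1 against WT. The list was chosen with these data known and is no independent evidence of its direction.

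Factors that are normally switched off at T-lineage commitment moved the other way. Of 14 such genes, 12 were higher in IDH2/NHD13 spleens than in SCL/LMO1 thymi and 0 lower, with a median log2 fold change of 2.89. Nfe2, Lmo2, Tal1 and Gata2 had log2 fold changes of 6.35, 3.72, 5.37 and 2.82. These 4 genes are also expressed in erythroid and megakaryocytic precursors, and the erythroid list was 8.86 to 12.91 in the same spleens against 4.75 to 5.22 in the SCL/LMO1 thymi. The part of these cells in the list was not tested. Tal1 is the gene also called SCL, as in the SCL/LMO1 label, and averaged 5.58 in SCL/LMO1 and 5.38 in WT thymi. Whether its probe set reads the transgene was not tested. The mean of the 14 genes was 8.62 to 9.59 in IDH2/NHD13 spleens, 5.72 to 6.78 in SCL/LMO1 thymi and 6.51 to 7.04 in WT thymi, with no overlap between spleens and thymi. Against WT 9 were higher and 1 lower, Meis1 (-2.02), and in SCL/LMO1 against WT 0 were higher and 1 lower, again Meis1 (-2.62). Over all genes, 11.7% were higher between the leukemias and 9.08% in spleens against WT, and 11.6% were called in SCL/LMO1 against WT.

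**Figure D5:**
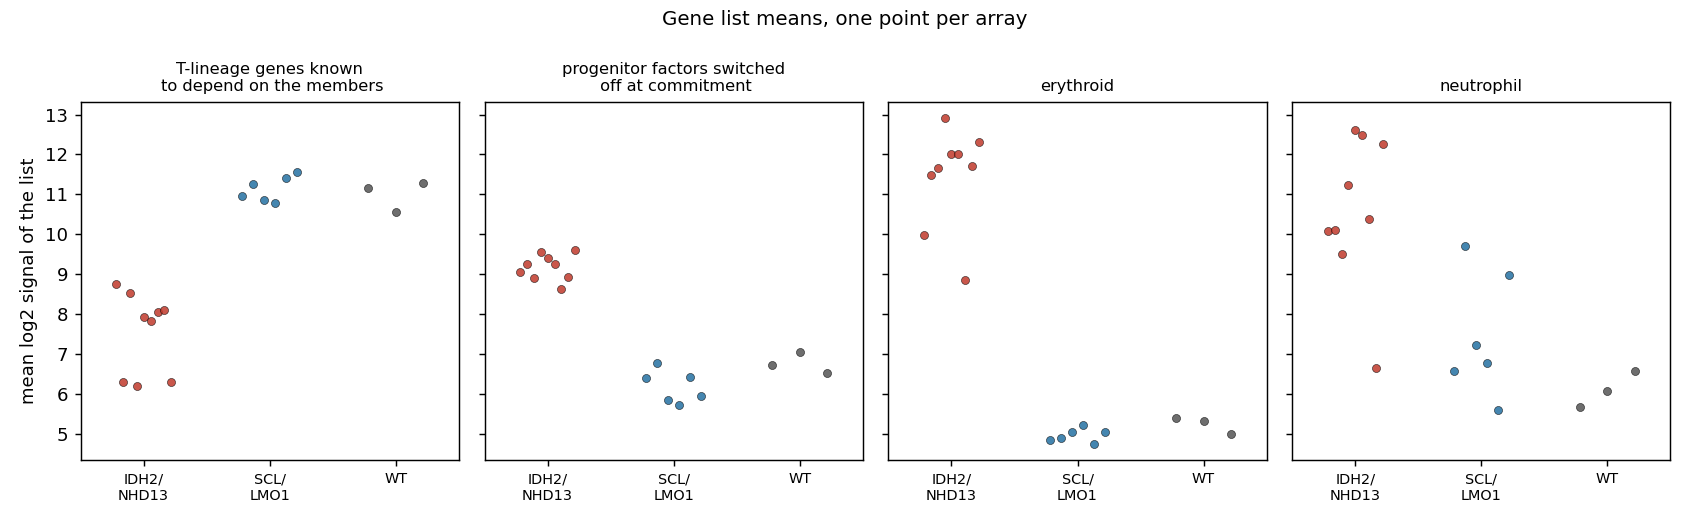
Mean log2 signal (vertical axis) of 20 T-lineage genes that depend on the factors, 14 progenitor factors, 14 erythroid genes and 9 neutrophil genes, with 1 point per array for IDH2/NHD13 spleens, SCL/LMO1 thymi and WT thymi (horizontal axis). The T-lineage list lies at 6.2 to 8.74 in the spleens and at 10.79 to 11.55 in the SCL/LMO1 thymi, and the erythroid list at 8.86 to 12.91 against 4.75 to 5.22.

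Partners of the 10 factors in T-lineage specification were lower in 8 of 15 genes between the leukemias and higher in 1. Satb1, with a log2 fold change of -4.13, was 5.96 to 11.96 in IDH2/NHD13 spleens, 12.62 to 13.54 in SCL/LMO1 thymi and 13.17 to 13.95 in WT thymi. The Notch pathway genes Notch1, Dtx1 and Hes1 were lower, at -3.26, -5.03 and -1.42. Zbtb7b, the CD4-lineage factor, went against the list at 0.64 and averaged 6.58 in IDH2/NHD13 spleens, 5.95 in SCL/LMO1 thymi and 6.66 in WT thymi. Against WT 1 of the 15 was higher in IDH2/NHD13 spleens, Runx3 (1.94), and 5 were lower, among them Satb1 (-4.74), Gfi1 (-2.58), Runx1 (-1.3) and Dtx1 (-0.85). For SCL/LMO1 against WT, 3 were higher, Dtx1 (4.18), Notch1 (2.22) and Hes1 (1.68), and 1 was lower, Zbtb7b (-0.71). Over all genes, 23.7% were called between the leukemias, 17.4% in spleens against WT and 11.6% in SCL/LMO1 against WT.

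Relatives of the 10 factors from the same families moved in both directions. Of 16, 3 were higher and 4 lower in IDH2/NHD13 spleens than in SCL/LMO1 thymi, and the median log2 fold change was 0.02. Ets2 averaged 9.24 in IDH2/NHD13 spleens, 11.81 in SCL/LMO1 thymi and 12.27 in WT thymi, and it was lower in spleens with log2 fold changes of -2.58 against SCL/LMO1 and -3.03 against WT. Tcf7l2, the relative of Tcf7 and Lef1, averaged 7.47 in IDH2/NHD13 spleens, against 5.8 in SCL/LMO1 (1.67, limma adjusted p = 0.000456) and 7.05 in WT thymi (0.43, limma adjusted p = 0.4). Id4 was higher in IDH2/NHD13 spleens than in SCL/LMO1 thymi by 3.33, and lower in SCL/LMO1 thymi than in WT, at -2.88. Gata1, the erythroid GATA factor, was higher in spleens than in SCL/LMO1 thymi by 4.14, beside the erythroid list above. The other genes lower between the leukemias were Ikzf2, which encodes Helios, at -2.3, Nfatc3 at -0.86 and Nfat5 at -0.69. Against WT 1 of the 16 was higher, Gata1 (4.73), and 2 were lower, Ets2 and Nfatc3 (-0.9). For SCL/LMO1 against WT, 0 were higher and 2 lower, Id4 and Tcf7l2 (-1.24). The shares called over all genes were 23.7% between the leukemias and, against WT, 17.4% in spleens and 11.6% in SCL/LMO1 thymi.

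Among 8 beta-catenin and groucho partners of Tcf7 and Lef1, 1 was higher and 2 were lower between the leukemias. In that comparison 23.7% of all genes were called. Axin2, a feedback gene of beta-catenin signals, averaged 7.12 in IDH2/NHD13 spleens, 8.94 in SCL/LMO1 thymi and 8.11 in WT thymi, lower in spleens with log2 fold changes of -1.82 against SCL/LMO1 and -0.99 against WT (limma adjusted p = 6.01e-05 and 0.0336). Tle1, a groucho co-repressor, was higher by 0.98 and Tle3, another, lower, at -0.52, and Tle4 stood at 0.81 (limma adjusted p = 0.0702). Against WT 1 was higher in spleens, Myc (1.12), a proto-oncogene and known target of beta-catenin, and 2 were lower, Axin2 and Apc (-0.64). For SCL/LMO1 against WT, 1 was higher, again Myc (1.51), and 0 lower. The shares called over all genes against WT were 17.4% in spleens and 11.6% in SCL/LMO1 thymi.

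Of 8 measured genes of calcineurin and NFAT signalling, 1 was higher and 2 were lower between the leukemias, where 23.7% of all genes were called. Camk4, a calcium-dependent kinase and the gene most like Ikzf3, was 3.96 to 8.81 in IDH2/NHD13 spleens, 11.6 to 12.11 in SCL/LMO1 thymi and 10.92 to 11.41 in WT thymi. Its 2 highest spleens, mice 559 (8.81) and 555 (7.61), were also those highest for Ikzf3. Ppp3ca, a catalytic subunit of calcineurin, was higher in IDH2/NHD13 spleens by 2.2 and Ppp3cb, another, lower, at -0.52. Egr1, an early gene of T-cell receptor signals, stood at -1.32 (limma adjusted p = 0.0868). Against WT 0 were higher and 2 lower, Camk4 (-5.7) and Egr2 (-2.56). For SCL/LMO1 against WT, 0 were higher and 1 lower, Ppp3ca (-1.54). Calls against WT made up 17.4% of all genes in spleens and 11.6% in SCL/LMO1 thymi.

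Of 10 innate and NK genes that committed T cells hold down, 2 were higher in IDH2/NHD13 spleens than in SCL/LMO1 thymi and 0 lower. Over all genes, 11.7% were higher and 12% lower in that comparison. Zbtb16, the innate T-cell factor PLZF, was higher by 1.7 and Fcer1g, a signalling chain of Fc and NK receptors that myeloid cells also carry, by 1.25. Nfil3 stood at 0.88 and Tyrobp at 0.99 (limma adjusted p = 0.059 and 0.0595). Against WT 0 were higher and 2 lower in IDH2/NHD13 spleens, Tbx21 (-1.26), the factor T-bet, and Klrb1c (-0.61). The same genes were the 2 lower in SCL/LMO1 against WT, at -1.6 and -0.54, with 0 higher. Calls against WT made up 17.4% of all genes in spleens, 8.31% lower, and 11.6% in SCL/LMO1 thymi, 6.52% lower. Fcer1g averaged 10.77 in IDH2/NHD13 spleens, 9.51 in SCL/LMO1 and 10.05 in WT thymi. In the same order, the neutrophil list was 6.64 to 12.6, 5.6 to 9.71 and 5.67 to 6.57. The macrophage list was 9.59 to 10.74, 8.35 to 9.15 and 9.39 to 10.43. The part of these cells in the level of Fcer1g was not tested.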

How the data were processed

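Total RNA was isolated with TRIzol, labelled with biotin and hybridised to 18 mouse expression arrays, per the labels' protocols. The deposited values are log2 signals from 2.58 to 14.83. The summarisation and normalization by the authors are not given in the sources used here, and the values entered the tests unchanged. Without detection calls, a low signal may be background. Another 36 columns, named by array numbers alone, match no sample's label and were left out.

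Symbols were updated by Entrez identifier through a RefSeq table of GRCm38.p6, and the brightest probe set over all arrays represented each of 20672 genes. With limma 3.58.1 in R 4.3.3, 1 coefficient per group and 3 contrasts were fitted over all genes, with Benjamini-Hochberg adjustment at 0.05. The limma fit was run on simulated arrays with known shifts and the same spread in all groups. That run cannot show how the fit handles the uneven spread of spleens and thymi seen here. Nothing states that samples of a group were handled separately, so p-values measure the spread between these mice.

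The 10 genes, the 7 pathway and 10 marker lists and the tests were chosen with earlier results of these data known. From each pathway list, the 4 genes with the smallest adjusted p between the leukemias and up to 2 that passed against the majority were named. Other genes behind counts of 5 or fewer were named after their values were seen. A list gene that is counted but not named is not reported here. From marker lists, means are given. Motifs were searched in RefSeq promoters. Alternatives were quantile normalization, centred medians, a filter on low values (15149 genes left), the mean of probe sets, a robust variance trend, array weights, only 2 groups, 18 separate arrays, other probe sets, exact permutation tests, samples left out and, added after the data were seen, random blocks for pairs of arrays.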

Additional observations from a re-analysis of the deposited data

How the results depend on the processing

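All 7 genes called between the leukemias kept direction and call under every alternative, except Ikzf1 with its dim second probe set (0.12, adjusted p = 0.387). The count of members was 7 to 8 with samples left out, and that of all genes, 4902, was 4064 to 5357. Against WT, 3596 genes in IDH2/NHD13 became 6902 with array weights and 1989 with only 2 groups. With samples left out they were 1382 (without WT mouse 623, and 1979 without 627) to 5288. The count of members, 3, was 3 to 6 with samples left out, 6 of them without mouse 524 and 5 without mouse 555, and 6 with array weights. Bcl11b, Tcf7 and Ets1 were those added by array weights (adjusted p = 0.0183, 0.0257 and 0.0147). In SCL/LMO1 against WT, 2390 genes became 4827 with array weights and 1060 without mice 555, 627 and 6889/1. With samples left out they were 765 (without 627, and 1200 without 623) to 2989. The count of members, 1, was 2 with only 2 groups, 0 without the 3 mice, and 0 to 1 with samples left out, 0 of them without 627. The causes were not tested.

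Gata3 between the leukemias was called with array weights (-2.17, adjusted p = 0.0241). A random block for mice 7114/1 and 7114/3 alone was not run, because 1 pair leaves the correlation without an estimate. An added fit with blocks for both pairs of arrays (correlation 0.767) changed no call of a member. Exact permutation tests, not adjusted, gave p = 0.0485 for Bcl11b in IDH2/NHD13 against WT, and p = 0.0119 for Lef1 and 0.0476 for Ets1 in SCL/LMO1 against WT, genes not called by limma there. No paired analysis was possible because the replicate numbers only follow the order of the samples.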
